A study of Xenopus laevis with 13 samples.

Results

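A group of 10 genes of the fibroblast growth factor (FGF) pathway were followed from the fertilized egg to the gastrula of the frog *Xenopus laevis*. They are 4 ligand genes (fgf2, fgf4, fgf8 and fgf20), 3 receptor genes (fgfr1, fgfr2 and fgfr4) and 3 genes for feedback inhibitors (spry1, spry2 and dusp6). Gene models were taken by name, each copy included, which gave 18 of the 54110 gene models in the files. The rule matched names and no measured value, but the genes were proposed with earlier results of these data known. *X. laevis* is allotetraploid, so many genes have a pair of copies, called homeologues. Of the 10 genes, 8 had 2 gene models here, and fgf4 and spry1 had 1 each. The models of a gene are numbered in the order of their scaffolds.

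RNA came from 5 single eggs and 5 single whole embryos, with no treatment other than fertilization in vitro. The eggs were fertilized, had not cleaved and were taken at 60 minutes (Nieuwkoop and Faber stage 1). The embryos were gastrulae of stage 10.5. A single hormone-injected female is named for the clutch, and differences between females are therefore outside the p-values below. A further 3 technical libraries of stage 10.5 were kept out of the tests. Their columns in the table are headed only as numbered replicates and were matched to these libraries by that word and number. The embryo libraries were made with a different kit (Kapa Hyper Prep with a USER digestion) from the egg libraries, so stage and library preparation cannot be told apart. Levels are given in FPKM, in which reads are scaled by the length of the gene model and by a measure of library size. They are relative levels within a library and not amounts per egg or embryo. In a whole embryo, fewer cells with a transcript and less of it per cell cannot be told apart.

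FGF ligands are secreted proteins that bind receptor tyrosine kinases at the cell surface. The activated receptors signal through the adaptor Frs2, Ras and a cascade of kinases, which activates Ets transcription factors. Sprouty proteins and the phosphatase Dusp6 are made in response to the signal and dampen it, which makes them common readouts of pathway activity. In the *Xenopus* gastrula the pathway is known for maintaining the mesoderm, where the T-box gene brachyury (named t in the files) is a classical target, and for posterior development.

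The deposited table holds no read counts, and depth was worked out from the size of the smallest FPKM steps. It was 1504545 to 2916964 reads in eggs, 1364515 to 3810559 in embryos and 726501 to 1174211 in technical libraries. The library size used in FPKM did not follow this depth. Egg 1 had 1573890 reads and embryo 2 had 1587732, but 3 reads of fgf8-1 stood for 0.579 and 1.03 FPKM there. The part of this in the changes between stages was not tested. The libraries matched their stage labels by early zygotic genes. Of 36 tested models of early zygotic genes, 34 were higher in embryos, against 31.6% of all tested models. Of all 39 models of these genes, 24 were at 0 in each egg, and for such models only a rise could be called. The summed level of the 39 was 0.624 to 45.3 FPKM in eggs and 3211 to 3825 FPKM in embryos. Models of maternal genes summed to 3074 to 5027 FPKM in eggs and 3908 to 5170 FPKM in embryos. Of 20 tested, 8 were lower and 4 higher in embryos, against 25.2% lower and 31.6% higher among all tested models. The list was taken by name, and a model named both stag1 and btg4 had means of 0.666 FPKM in eggs and 228 FPKM in embryos. Of 23 models that mark blood and other differentiated cells, 18 were below 1 FPKM in each egg and embryo. Of 3 tested models, 1 was lower in embryos, a model named both hba1, a hemoglobin alpha gene, and mgc82602. It was at 106 to 139 FPKM in eggs and 22.2 to 42.8 FPKM in embryos, so models with such names were not all absent. The other hemoglobin models of the list were at 0 in each egg. The reason for the level of the model named hba1 and mgc82602 was not tested. The 5 most abundant models held 34.8% of the reads of egg 5, 1.51% to 2.81% in the other eggs, 12.0% to 25.3% in embryos and 20.1% to 24.7% in technical libraries. The part of this difference in the results below was not tested.

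Of the 18 FGF models, 14 reached an average of 1 FPKM over the 10 libraries and were tested. Eggs and embryos were compared with limma on log2(FPKM + 1), with Benjamini-Hochberg adjustment over the 19373 models tested. Of the 14, 10 were higher in embryos at an adjusted p under 0.05 and 0 were lower, against 31.6% higher and 25.2% lower among all tested models. The count of lower models was 0 at an unadjusted p under 0.05 too, and no other tool was run on these values. The one negative change, that of fgfr1-2, had a limma adjusted p = 0.380. The 10 called models are both models of fgf8, fgfr2, fgfr4, spry2 and dusp6. Both fgf8 models and fgfr2-1 were at or near 0 in eggs and passed the filter only through the embryos. For such models only a rise could be called, here and in the lists below. In each of the 10, the lowest embryo lay above the highest egg, a separation found in 23.5% of all tested models. The median change was 1.71 over the 14 FGF models and 0.12 over all tested models, on the log2 scale. The median over all models moved to -0.11 under quantile normalization. Of all tested models, 5293 were then called higher in place of 6123, and 6126 lower in place of 4879. The 10 FGF models were still called higher. The part of scaling in the change of a single model was not tested. When models of one name were summed, 8 of the 10 genes were tested and 5 were higher in embryos (fgf8, fgfr2, fgfr4, spry2 and dusp6), and 0 were lower, against a background of 32.8% higher and 26% lower. In these 5, too, each embryo lay above each egg, as was the case for 24.4% of all summed names.

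**Figure D1:**
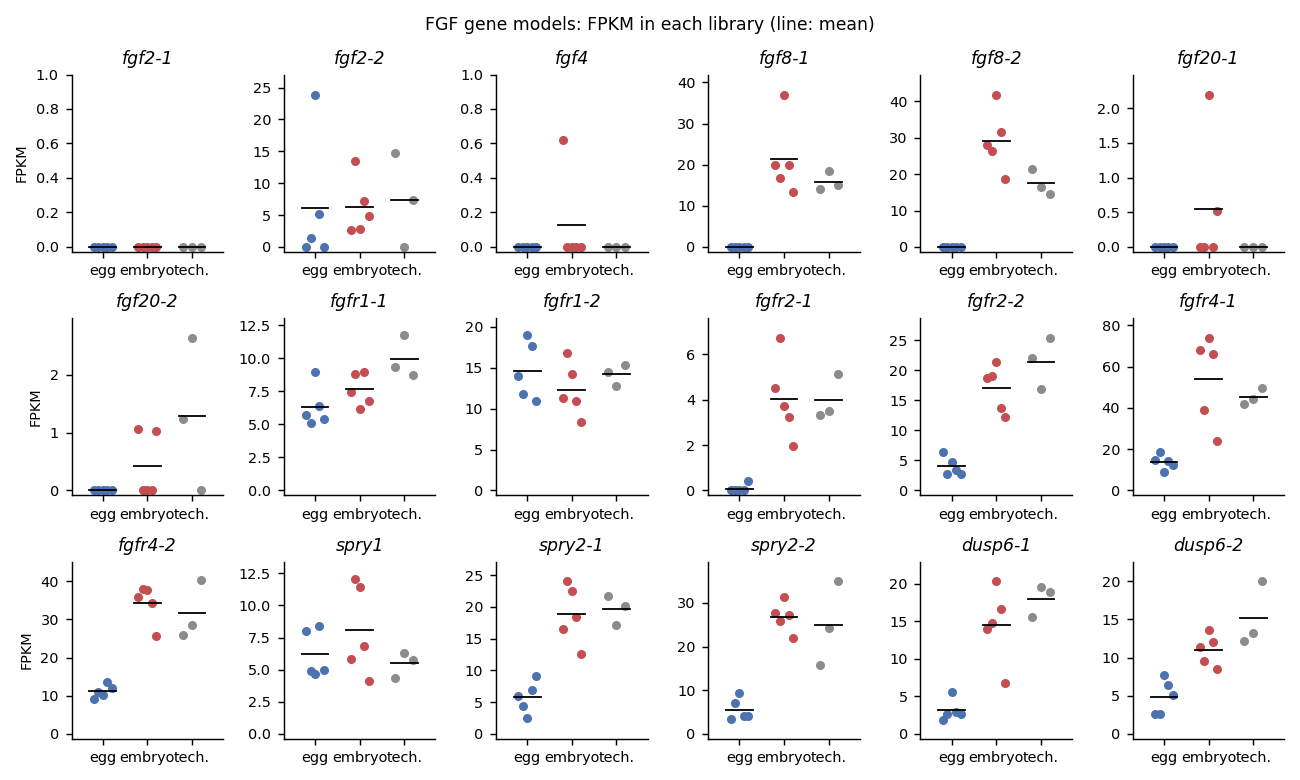
FPKM (vertical axis, linear, own scale in each panel) of the 18 FGF gene models in 5 eggs, 5 embryos and 3 technical libraries (tech.); each point is 1 library and each line a mean. The egg points of fgf8-1 and fgf8-2 lie at 0 while their embryo points lie between 13.4 and 41.8, and the egg and embryo points of fgfr1-1, fgfr1-2 and spry1 overlap.

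Among the ligands, fgf8 was the one with a strong signal in gastrulae. Fgf8 acts in posterior mesoderm and neural development in *Xenopus*. Both models have 6 exons. On the JGI 7.1 assembly, fgf8-1 lies on scaffold 000001915 (804816 to 816712, minus strand) and fgf8-2 on scaffold 000033483 (253809 to 264505, plus strand). Both were listed at 0 in each of the 5 eggs. In embryos 1 to 5, fgf8-1 measured 19.8, 16.8, 37.0, 20.02 and 13.4 FPKM. The same embryos gave 27.9, 26.3, 41.8, 31.7 and 18.6 FPKM for fgf8-2. Embryo 3 was the highest and embryo 5 the lowest for both models. The embryo values rest on 48.9 to 177 recovered reads for fgf8-1 and on 93.8 to 304 for fgf8-2.

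Because the eggs were at 0, the fold of fgf8 is a lower bound. With a floor of 3 reads per library, a value of 0 allows 0.537 FPKM of fgf8-1 and 0.440 FPKM of fgf8-2 on average over the eggs, for counting error only. Against these floors, fgf8-1 was at least 39.8-fold higher in embryos and fgf8-2 at least 66.5-fold higher. Both models passed the filter only through the embryos, and the eggs had no spread, so the test could find only a rise. Its limma adjusted p (8.47e-08 for fgf8-1 and 1.02e-08 for fgf8-2) is therefore no support beyond the values themselves. The technical libraries held 14.1 to 18.5 FPKM of fgf8-1 and 14.7 to 21.5 FPKM of fgf8-2.

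The other ligands were low or absent at this depth. Fgf4, formerly called eFGF, is known in *Xenopus* for a loop with brachyury in the mesoderm. Its model was listed at 0 in each egg and at 0.617, 0, 0, 0 and 0 FPKM in embryos 1 to 5, and the value in embryo 1 is 1 read. The floor of 3 reads was 2.49 to 3.57 FPKM in eggs and 1.84 to 5.97 FPKM in embryos, the levels that a value of 0 still allows. The model spans 1084660 to 1094471 on the minus strand of scaffold 000043483. It has 576 bases in 3 exons, all of them coding, so reads from untranslated regions of fgf4 could not be counted to it.

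A neighbour of fgf4 on the same scaffold was measured better. The fgf4 model stands between fgf19 and fgf3, and RefSeq (assembly Xenopus_laevis_v10.1) lists the same 3 neighbours for both homeologous chromosomes. On the scaffold of fgf4, fgf3, another ligand of gastrula mesoderm, was at 0 in each egg and at 5.77, 6.62, 5.14, 5.87 and 7.26 FPKM in embryos 1 to 5. Fgf19, a ligand of the endocrine subfamily, was at 0 in each egg and embryo on this scaffold. A second fgf3 model, on scaffold 000185603, was lower. It was at 0 in each egg and at 1.13, 0.869, 1.84, 1.73 and 1.19 FPKM in embryos 1 to 5, from 1 to 4 reads. On scaffold 000185603, an unnamed model of 3 exons lies between fgf3 and fgf19, at 195612 to 201730, which is the place of the second fgf4 in the RefSeq order. Its middle exon has 104 bases, a length found in 28 of the 34 FGF ligand models here. It was at 0 in each egg and at 1.67, 0, 4.50, 0.565 and 2.33 FPKM in embryos 1 to 5. The files give it no name, and it was not counted as fgf4.

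Fgf20 is a ligand of the Fgf9 subfamily. The 2 models were at 0 in each egg. In embryos, fgf20-1 was at 2.19 FPKM in embryo 3, 0.524 FPKM in embryo 5 and 0 in the others. For fgf20-2, embryos 1 and 5 had 1.07 and 1.02 FPKM and the others 0 or less than 0.001 FPKM. Neither reached the mean of 1 FPKM for testing. The exons of fgf20-1 share 1840 of their 1844 bases with an unnamed model on the opposite strand. That model was at 0 in each egg and at 3.23, 3.49, 1.90, 1.35 and 1.64 FPKM in embryos 1 to 5. The libraries were strand-specific, but whether strand was used when reads were assigned is not given in the sources used here, so reads of fgf20-1 and of this model may not be told apart. Summed over both strands, the locus was at 2.86 ± 1.096 FPKM in embryos (SD, n = 5).

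Fgf2, or basic FGF, is the ligand first known for inducing mesoderm in *Xenopus* explants. fgf2-1 was listed at 0 in all 13 libraries, where the floor of 3 reads was 1.05 to 1.51 FPKM in eggs and 0.777 to 2.52 FPKM in embryos. fgf2-2, on the minus strand of scaffold 000088765 (2582959 to 2621887), has 465 bases, all of them coding. It was at 0, 1.32, 23.9, 5.20 and 0 FPKM in eggs 1 to 5. Embryos 1 to 5 gave 2.64, 13.5, 2.85, 7.15 and 4.92 FPKM. The groups overlap, and egg 3 alone stands above each embryo. These values come from at most 14.1 reads in an egg and 5.04 in an embryo. The change was 0.95 ± 0.81 (SE) on the log2 scale and did not pass the test (limma adjusted p = 0.338). Without egg 3 it was 1.69, with limma adjusted p = 0.0299, so the outcome of the test turns on that egg.

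The gene next to fgf2 on the opposite strand gave the reverse order in egg 3. That gene is nudt6, whose transcript is known as an antisense RNA of fgf2 in vertebrates. It was at 22.5, 20.4, 1.39, 18.9 and 23.3 FPKM in eggs 1 to 5. Egg 3, the egg with the most fgf2-2, had the least nudt6, with 3 reads against 53.5 to 71.8 in the other eggs. Egg 3 was often extreme, being the lowest egg in 29.6% and the highest in 29.9% of 17239 models averaging 1 FPKM or more in eggs. Both shares were the largest among the eggs, and a link between fgf2 and nudt6 was not tested. In embryos nudt6 was between 10.1 and 18.2 FPKM. The nudt6 model (2571475 to 2582641) ends before fgf2-2 begins. Reads carried from one model to the other were not tested.

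The receptors were present at both stages. Receptor FPKM summed over the 6 models was 50.0 ± 4.20 in eggs and 130 ± 30.4 in embryos (SD, n = 5 each), which is 2.59 times as much. In eggs 1 to 5 the sums were 50.2, 49.3, 51.8, 55.0 and 43.5 FPKM. In embryos 1 to 5 they were 146, 128, 157, 137 and 78.8 FPKM. The sums of the 2 stages do not overlap. They are a description with no test, since the members were chosen with earlier results of these data known.

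**Figure D2:**
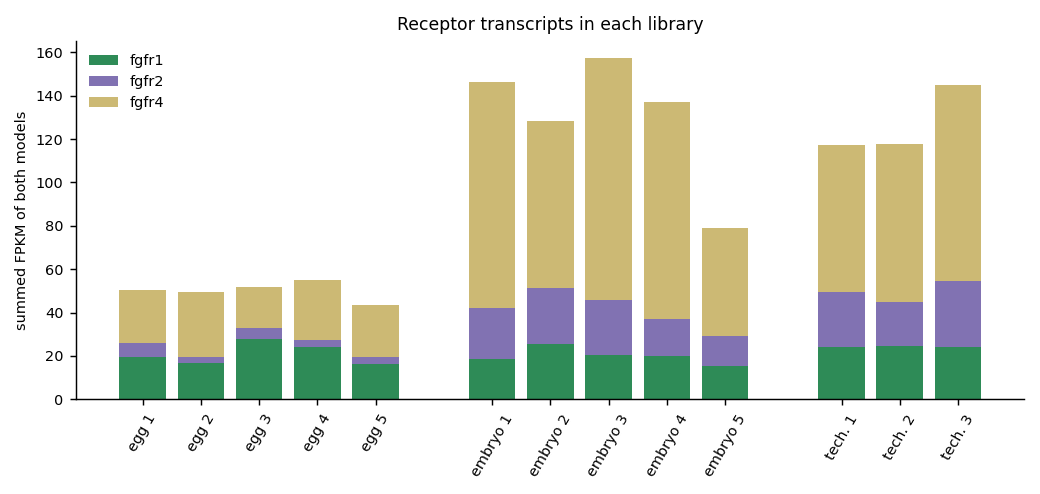
Summed FPKM (vertical axis) of both models of fgfr1, fgfr2 and fgfr4, stacked, in each egg, embryo and technical library. The fgfr1 part stays between 15.2 and 28.0 in each egg and embryo, while the fgfr4 part is 19.0 to 29.7 in eggs and 49.4 to 112 in embryos.

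Fgfr1 is the receptor best known for mesoderm signalling in *Xenopus*. It showed no change that passed the test. fgfr1-1 was at 5.73, 5.08, 8.99, 6.38 and 5.38 FPKM in eggs and at 7.47, 8.85, 6.19, 8.99 and 6.79 FPKM in embryos. Its change was 0.26 ± 0.19 on the log2 scale (SE, limma adjusted p = 0.280). fgfr1-2 was at 14.0, 11.8, 19.0, 17.6 and 10.9 FPKM in eggs. In embryos it was at 11.3, 16.8, 14.2, 11.0 and 8.38 FPKM. Its change was -0.24 ± 0.22 (SE, limma adjusted p = 0.380). The groups overlap for both models. Summed over both, fgfr1 was 21.0 ± 4.95 FPKM in eggs and 19.99 ± 3.77 FPKM in embryos (SD, n = 5 each). fgfr1-1 is named xfgfra2 and fgfr1 in the files, and RefSeq lists 1 gene of the name fgfr1 against the 2 models here.

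Fgfr2, a receptor also known from ectoderm, rose in both models. fgfr2-2 lies on the minus strand of scaffold 000109997 (119774 to 191956) with 18 exons and carries the double name fgf2b and fgfr2. It was at 6.46, 2.73, 4.77, 3.38 and 2.69 FPKM in eggs. In embryos it was at 18.7, 19.0, 21.4, 13.7 and 12.3 FPKM, a mean 4.25 times that of eggs (log2 change 1.88 ± 0.25, SE, limma adjusted p = 6.34e-05). fgfr2-1 was at 0 in eggs 1 to 4 and at 0.411 FPKM, or 4.99 reads, in egg 5. Embryos 1 to 5 gave 4.50, 6.70, 3.74, 3.22 and 1.96 FPKM of fgfr2-1. The fitted log2 change of fgfr2-1 was 2.16 ± 0.28 (SE, limma adjusted p = 5.84e-05), a size that depends on the value added before the logarithm. As fgfr2-1 passed the filter only through the embryos, the test could find only a rise. fgfr2-2 thus held 86.8% to 100% of the fgfr2 signal in eggs and 73.9% to 86.3% in embryos.

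Fgfr4 had the highest mean of the 10 genes at both stages, although fgfr1 was above it in egg 3. It is a receptor with a role in neural and mesodermal patterning of the *Xenopus* gastrula. fgfr4-1 (scaffold 000005925, 11212421 to 11223118, plus strand) was at 15.0, 18.6, 8.91, 14.0 and 12.2 FPKM in eggs. In embryos 1 to 5 it reached 68.1, 38.9, 74.1, 66.0 and 23.8 FPKM. Embryos 1, 3 and 4 lay close together, and embryos 2 and 5 lay well below them. The mean was 3.94 times that of eggs (log2 change 1.83 ± 0.31, SE, limma adjusted p = 0.000446).

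The second model of fgfr4 varied less. fgfr4-2 (scaffold 000100253, 1233084 to 1243235, minus strand) was at 9.11, 11.0, 10.1, 13.6 and 12.0 FPKM in eggs. It was at 36.0, 38.0, 37.8, 34.4 and 25.6 FPKM in embryos, with a mean 3.08 times that of eggs (log2 change 1.54 ± 0.17, SE, limma adjusted p = 1.66e-05). The coefficient of variation over embryos was 14.9% for fgfr4-2 and 40.1% for fgfr4-1. Counting error of the recovered reads alone would give 6.50% and 6.66%. In the technical libraries the coefficients were 24.1% for fgfr4-2 and 9.12% for fgfr4-1 (n = 3), so the larger spread of fgfr4-1 was not seen there.

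The makeup of the receptor signal differed between the stages. Fgfr1 took 41.7% ± 7.67 of the receptor FPKM in eggs and 15.9% ± 3.45 in embryos (SD, n = 5 each), and these shares do not overlap. The share of fgfr2 was 8.17% ± 2.96 in eggs and 16.5% ± 2.87 in embryos, with the highest egg at 12.8% and the lowest embryo at 12.3%. Fgfr4 took 50.1% ± 8.85 in eggs and 67.6% ± 5.87 in embryos, with egg 2 at 60.2% and embryo 2 at 60.0%. Fgfr3, the fourth receptor gene, is no member. Its 2 tested models had means of 1.59 and 3.54 FPKM in embryos, and neither passed the test.

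The feedback inhibitors split by gene. Spry2 and dusp6 rose in both models, and spry1 did not pass the test. Spry1 and Spry2 are Sprouty proteins, which inhibit receptor tyrosine kinase signalling. The one spry1 model was at 8.01, 4.94, 4.67, 8.43 and 4.99 FPKM in eggs and at 5.85, 12.0, 11.4, 6.85 and 4.15 FPKM in embryos. The groups overlap, and embryo 5 was below each egg. Its log2 change was 0.28 ± 0.29 (SE, limma adjusted p = 0.432). With the technical libraries in place of the single embryos the sign turned, to -0.13 (limma adjusted p = 0.722). RefSeq lists 2 genes of the name spry1, and the second had no model of that name here.

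The spry2 models lie on separate scaffolds. spry2-1 (scaffold 000078860, 6147159 to 6153474, plus strand) was at 5.97, 4.40, 2.58, 6.90 and 9.18 FPKM in eggs and at 16.5, 24.1, 22.4, 18.4 and 12.7 FPKM in embryos. Its log2 change was 1.60 ± 0.28 (SE, limma adjusted p = 0.000583). spry2-2 (scaffold 000221007, 979064 to 984816, plus strand) was at 3.34, 7.19, 9.28, 4.02 and 4.02 FPKM in eggs. Embryos gave 27.7, 25.7, 31.4, 27.1 and 21.9 FPKM, a log2 change of 2.15 ± 0.25 (SE, limma adjusted p = 2.47e-05). The mean in embryos was 3.24 times that of eggs for spry2-1 and 4.80 times for spry2-2. In eggs, egg 3 was the lowest for spry2-1 and the highest for spry2-2, with 10 and 37.0 reads. Egg 5 was the highest for spry2-1, at 9.18 FPKM. Summed over both models, spry2 was even among eggs, at 9.31 to 13.2 FPKM. Short reads that match both models can be assigned to either, and how far this moved the single models was not tested.

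Dusp6 is a phosphatase that switches off the last kinases of the cascade. dusp6-1 (scaffold 000005925, 3135584 to 3141557, plus strand) was at 1.87, 2.67, 5.56, 2.88 and 2.67 FPKM in eggs. Embryos gave 13.9, 14.8, 20.3, 16.6 and 6.77 FPKM. Embryo 5 was well below the others but above each egg. The mean was 4.62 times that of eggs (log2 change 1.89 ± 0.30, SE, limma adjusted p = 0.000252). dusp6-2 (scaffold 000037038, 2504977 to 2510048, plus strand) was at 2.60, 2.59, 7.74, 6.38 and 5.10 FPKM in eggs and at 11.4, 9.57, 13.6, 12.1 and 8.44 FPKM in embryos. Its mean was 2.26 times that of eggs (log2 change 1.11 ± 0.28, SE, limma adjusted p = 0.00531), the smallest change among the 10 called models. The gap between egg 3 and embryo 5 was narrow, at 7.74 against 8.44 FPKM. dusp6-1 shares 671 of its 2532 exon bases with an unnamed model on the opposite strand, which was at 0.279 to 1.87 FPKM in embryos. As for fgf20-1, reads of dusp6-1 and of the model opposite to it may not be told apart.

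**Figure D3:**
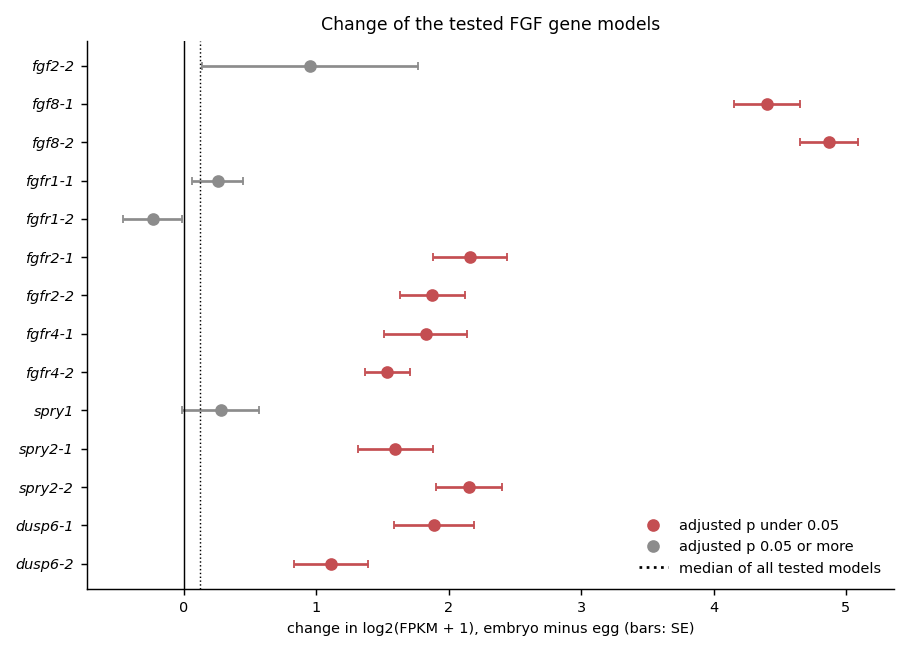
Change in log2(FPKM + 1), embryo minus egg (horizontal axis), of the 14 tested FGF models, with bars of 1 SE; colour marks whether the adjusted p was under 0.05. The 10 called models lie between 1.11 and 4.87, and the others between -0.24 and 0.95; the dotted line is the median of all tested models, 0.12.

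Per kilobase, the 10 genes kept a partial order within each stage. In embryos, the sum over models was highest for fgfr4, at 88.5 ± 25.5 FPKM (SD, n = 5). It exceeded fgf8, at 50.7 ± 17.4 FPKM, in 5 of 5 embryos, although the ranges overlap. Fgf8 and spry2 (45.6 ± 7.25 FPKM) were not separated, with fgf8 higher in 3 of 5 embryos. Spry2 lay above dusp6 (25.5 ± 6.85 FPKM) without overlap. Dusp6, fgfr2 (21.0 ± 5.17 FPKM) and fgfr1 overlapped. Fgfr1 lay above spry1 (8.06 ± 3.49 FPKM), and spry1 overlapped with fgf2 (6.20 ± 4.45 FPKM). Fgf20 and fgf4 were last, at means of 0.961 and 0.123 FPKM. In eggs, fgfr4 (24.9 ± 4.07 FPKM) and fgfr1 overlapped, fgfr1 lay above spry2 (11.4 ± 1.42 FPKM) in each egg, and spry2, dusp6, spry1 and fgf2 overlapped with their neighbours in the order. Fgfr2 (4.09 ± 1.53 FPKM) was the lowest gene detected in every egg. Fgf4, fgf8 and fgf20 were at 0.

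Embryo 5 was low across the FGF genes. It had the lowest value of the 5 embryos in 12 of the 14 tested models, and the highest in 0. The 14 include both models of 6 genes and are not 14 separate genes. Over 18156 models that averaged 1 FPKM or more in embryos, embryo 5 was the lowest in 27.0% and the highest in 30.7%. In other lists it was the lowest in 15 of 36 tested zygotic, 21 of 54 cascade and 9 of 21 other feedback models. Among targets this held for 8 of 16 models, and among other ligands and receptors for 1 of 9. A share above that of all models was thus not particular to the FGF models. Embryo 5 had 2921608 recovered reads, the second most among the embryos. Without embryo 5 the 10 models were still called and 0 were lower. Embryo 3 was the highest in 7 of the 14, and in 27.5% of the 18156 models. Over embryos, the coefficient of variation of the 14 models had a median of 27.6%, against 28.6% over all tested models.

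The 2 models of a gene can change by different amounts. For each of 6 genes, the difference in log2(FPKM + 1) between its models was compared between eggs and embryos by a two-sided exact permutation test over libraries, for which the smallest possible p is 0.00794. For dusp6, dusp6-1 minus dusp6-2 was -0.47 ± 0.37 in eggs and 0.31 ± 0.35 in embryos (SD, n = 5 each). The shift of 0.78 ± 0.23 (SE) had an exact p = 0.0159, adjusted over the 6 genes to 0.0476. That adjusted value depends on fgf8 being among the 6 with a smaller p, and without fgf8 dusp6 would not pass. The egg difference of fgf8 was fixed at 0. dusp6-1 was the lower model in 4 of 5 eggs and the higher in 4 of 5 embryos. Dusp6 is the only gene with a shift that passed and a mean difference that changed sign, and the margin is small. The order of the models within a stage was not tested. Short reads that match both models can be assigned to either, and how far this moved the difference was not tested. Leaving out 1 library ended the dusp6 call in 8 of 10 cases, all but egg 2 and embryo 5 (highest exact adjusted p = 0.119), while the shift stayed between 0.67 and 0.93. For fgf8, the difference was 0 in eggs, where both models were at 0, and 0.47 ± 0.19 in embryos (exact p = 0.00794, adjusted 0.0476). That comparison says that fgf8-2 exceeded fgf8-1 in 5 of 5 embryos and carries nothing on a ratio in eggs. The fgf8 call ended without egg 1, 3, 4 or 5 (highest exact adjusted p = 0.0952).

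For fgfr1, the lead of fgfr1-2 over fgfr1-1 shrank from 1.09 ± 0.16 in eggs to 0.60 ± 0.36 in embryos (SD, n = 5 each), which did not pass after adjustment (exact p = 0.0397, adjusted 0.0794). fgfr1-2 was the higher model in all 10 of these libraries. The shifts were -0.28 ± 0.30 for fgfr2, 0.29 ± 0.30 for fgfr4 and 0.56 ± 0.49 for spry2 (SE), with exact adjusted p of 0.389, 0.362 and 0.362. These p-values do not show that the copies of the 3 genes changed alike. When 0.1 instead of 1 was added before the logarithm, fgfr1 and fgfr2 also passed, each with an exact adjusted p = 0.0476. The fgfr2 value rests there on fgfr2-1 being at 0 in 4 of 5 eggs. Without embryo 3, fgfr1 passed as well (exact adjusted p = 0.0238).

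**Figure D4:**
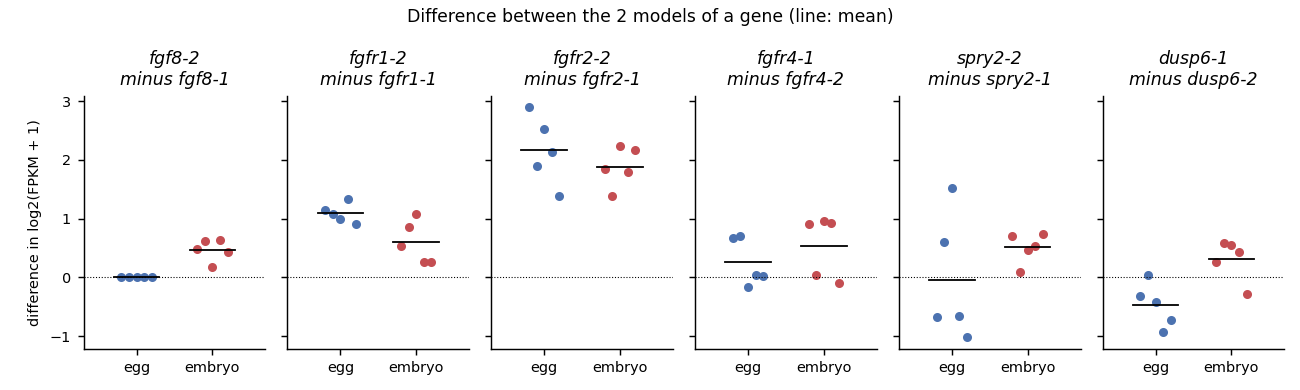
Difference in log2(FPKM + 1) between the 2 models of 6 genes (vertical axis), in 5 eggs and 5 embryos; each point is 1 library and each line a mean. The dusp6 points move from a mean of -0.47 in eggs to 0.31 in embryos, and the spry2 points spread most in eggs.

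The rest of the pathway was read from lists of genes by role, given as counts with no test of a list. Among other ligands, receptors and cofactors, 9 of 46 models were tested. Of these, 3 were higher in embryos and 0 lower, where 31.6% and 25.2% of all tested models were. They are both models of flrt3, a transmembrane protein that binds FGF receptors, and the fgf3 model on scaffold 000043483. The flrt3 models were at 0 to 0.261 FPKM in eggs and 30.9 to 49.6 FPKM in embryos, and fgf3 is given above. The median change of the 9 was 0.38 on the log2 scale.

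In the signalling cascade below the receptors, 54 of 58 models were tested. Of these, 12 were higher and 15 lower in embryos, against 31.6% higher and 25.2% lower over all tested models. Under quantile normalization 23 were lower. The median change was -0.14. The models with the largest changes were of frs2, the docking protein next to the receptor. One frs2 model on scaffold 000052352 was at 12.3 ± 4.04 FPKM in eggs and 115 ± 20.4 FPKM in embryos (log2 change 3.16). A second on that scaffold went from 5.22 ± 3.85 to 46.7 ± 17.0 FPKM (3.07), and one on scaffold 000237412 from 4.95 ± 1.97 to 21.6 ± 3.39 FPKM (1.97). The Ras-related gene rras2 fell from 38.2 ± 6.36 to 10.8 ± 3.40 FPKM (log2 change -1.77) in the model on scaffold 000029769. Its model on scaffold 000047091 rose from 2.22 ± 0.918 to 8.23 ± 1.53 FPKM (1.56), a value outside the rule for named models. The SDs are over 5 eggs and 5 embryos, and limma adjusted p for the 3 frs2 models and the falling rras2 model was between 5.45e-07 and 0.000189.

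Among other feedback genes, 21 of 27 models were tested, 6 were higher and 6 lower, near the 31.6% and 25.2% over all tested models, with a median change of 0.13. The phosphatase gene dusp1 went from 3.14 ± 1.77 to 41.6 ± 9.50 FPKM in the model on scaffold 000018892 (log2 change 3.54), and from 4.49 ± 4.20 to 33.9 ± 8.04 FPKM in the other (3.21). The phosphatase gene dusp5 went from 0.264 ± 0.398 to 7.29 ± 1.04 FPKM in the model on scaffold 000020641 (2.76), and its other model, at 2.03 ± 0.847 and 3.75 ± 2.51 FPKM, did not pass (limma adjusted p = 0.239). A model of spred1, a relative of the Sprouty genes, was at 0 in each egg and at 4.98 ± 2.27 FPKM in embryos. The ubiquitin ligase gene cbl fell from 3.94 ± 0.837 to 0.193 ± 0.110 FPKM (-2.04) in the model on scaffold 000144782.

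Genes known as targets of the pathway in *Xenopus* formed the last list. Of 18 models, 16 were tested, 13 were higher and 2 lower (31.6% and 25.2% over all tested models), with a median change of 3.31. The largest was cdx4, a caudal-type homeobox gene, at 0 in each egg and at 99.7, 85.5, 54.3, 95.8 and 125 FPKM in embryos 1 to 5. Brachyury (t) was at 0 to 0.443 FPKM in eggs and at 58.5, 56.7, 43.9, 57.9 and 50.9 FPKM in embryos. Its second model was at 0 in each egg and at 43.2 ± 9.30 FPKM in embryos. One model each of cdx1 and cdx2 reached 38.4 ± 10.2 and 41.9 ± 23.5 FPKM in embryos and were at most 0.628 FPKM in an egg. The 2 models that fell were of fos, an immediate early gene, the larger fall being from 11.2 to 3.19 FPKM. Embryo 5, the lowest for most of the FGF models, was the lowest embryo in 8 of the 16 tested target models and the highest in 3, this cdx4 model among them. The 36 tested models of early zygotic genes, most of them not chosen for a link to the pathway, had a median change of 6.13.

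**Figure D5:**
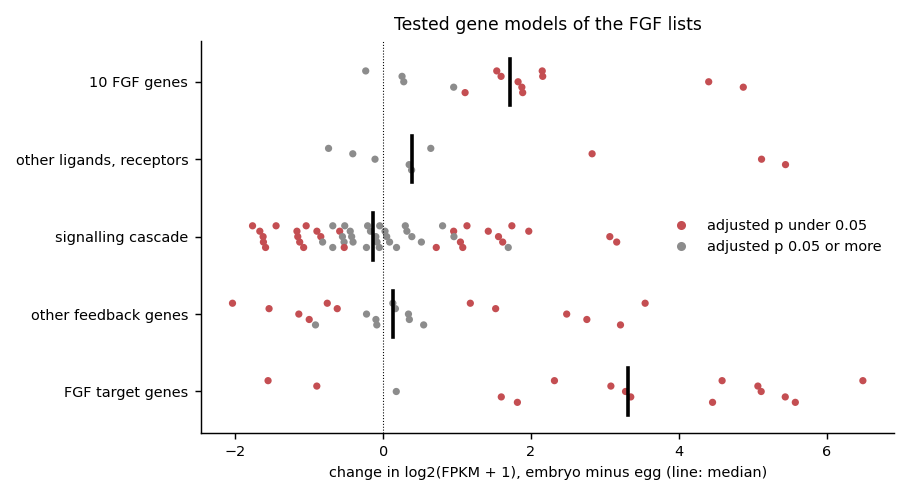
Change in log2(FPKM + 1), embryo minus egg (horizontal axis), of each tested model of the 10 FGF genes and of 4 lists of the pathway; each point is 1 model, lines are medians and colour marks an adjusted p under 0.05. The medians are 1.71 for the FGF genes, 0.38, -0.14 and 0.13 for the next 3 lists and 3.31 for the target genes.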

How the data were processed

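Single-end reads of 42 bases from rRNA-depleted total RNA were mapped by the authors to the JGI 7.1 assembly with gmap, and abundance was computed with Cufflinks 2.1.1 on 54110 pita gene models (1 transcript each). Cuffdiff is named as well, without a version. The authors deposited FPKM for each library. How reads matching several models were shared, and whether strand was used, is not given in the sources used here.

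Members were matched by name. The members and lists were chosen with earlier results of these data known. All member models are named, and from each list at most 5 called models without overlap of the groups, by size of change. A model that this rule names in the signalling cascade is not reported here. Eggs and embryos (n = 5 each) were compared on log2(FPKM + 1) by limma (version 3.58.1, R 4.3.3), with a trend in the variance, for models averaging 1 FPKM or more. p-values were Benjamini-Hochberg adjusted over all tested models, at a threshold of 0.05. A fold change on this scale understates the change of low genes. Copy differences were tested by exact permutation.

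Read numbers were recovered as multiples of the smallest FPKM step of each library, assuming fragments of mean 200 and SD 80 bases. Of values below 20 reads, 88.7% to 91.9% were whole within 0.1. Floors of 3 reads cover counting error only. Scripts were tested on simulated data. Alternatives changed the filter, pseudocount, scaling, variance trend, block and libraries. No sequences are shown, since no file used here holds any.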

Additional observations from a re-analysis of the deposited data

Results flagged for a closer look

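Among the 18 FGF models, 29 groups of 5 libraries had values that were not all equal and were searched for a single library far from the rest. A library was marked where its gap to the nearest other value was more than 0.71 of the range of the group. For normally distributed values chance marks about 1 group in 20, a rate that does not hold for groups with many zeros. A group with a single value above 0 is always marked, as were fgf4 in embryos and fgfr2-1 in eggs. The 6 groups marked here are therefore not read as an excess. In eggs, fgf2-2 was at 23.9 FPKM in egg 3, and the next egg was at 5.20 FPKM. dusp6-1 was at 5.56 FPKM in egg 3, and the next egg was at 2.88 FPKM. fgfr2-1 was at 0.411 FPKM in egg 5 and at 0 in the other eggs. In embryos, fgf8-1 was at 37.0 FPKM in embryo 3, and the next embryo was at 20.02 FPKM. fgf20-1 was at 2.19 FPKM in embryo 3, and fgf4 at 0.617 FPKM in embryo 1 with 0 in the others. The values of fgf4, fgfr2-1 and fgf20-1 come from 1, 4.99 and 4.82 reads.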

How the results depend on the processing

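The 10 FGF models called higher in embryos numbered 9 to 10 under the filters, pseudocount, scalings, flat variance, block and technical libraries, and 10 to 11 when single libraries were left out. Under a filter of a mean of at least 5 FPKM, fgfr2-1 was not tested. None was called lower under any of these. With single libraries left out, the counts ran from 5514 to 6253 for all higher and from 4453 to 5070 for all lower models. Other ligands and receptors higher in embryos numbered 8 with no filter other than above 0, since 30 models were then tested. Lower ones numbered 1 under quantile normalization and 0 to 1 with single libraries left out, and 23 cascade models were lower under quantile normalization. With the filter at 5 FPKM, other feedback genes numbered 3 higher and 1 lower of 9 tested. Target genes lower in embryos numbered 1 with the replicate block and 1 to 2 with single libraries left out. The sum of both fgfr1 models ran from -0.15 to 0.051 with single libraries left out, positive without egg 3 and, at 0.03, without embryo 5, against -0.06 with all libraries, and spry1 was -0.13 with the technical libraries. The cause was not tested.

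The count of 2 copy pairs became 4 with a pseudocount of 0.1, 0 with the replicate block and 0 to 2 with single libraries left out. The fgf8 pair has a difference fixed at 0 in eggs, where both models are at 0, and the fgfr2 shift with the smaller pseudocount (-2.67) is set by fgfr2-1 being at 0 in 4 of 5 eggs, so neither measures a change of ratio. With numbers paired the smallest possible p is 0.0625. Eggs and embryos share replicate numbers, but same-numbered libraries did not deviate together (r of -0.017 to 0.074, 0 of 5 over 0.1). These correlations show no pairing by number but cannot exclude one. With the replicate block, 10 FGF models were higher, 5985 of all models were higher and 4676 lower, and 2 of 5 eggs correlated best with their own number. Depth limits fgf2, fgf4 and fgf20, with at most 14.1 reads in a library.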
